A study of Mus musculus with 8 samples.

Results

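The genes described here encode 10 amino acid transporters of activated T cells, namely Slc7a5, Slc3a2, Slc1a5, Slc1a4, Slc7a1, Slc7a6, Slc38a1, Slc38a2, Slc43a1 and Slc7a11. They were chosen by name, and each was read from the probe set that the platform annotates with that symbol alone, taking the one with the highest mean where there were several. All 10 had such a probe set, out of 22180 genes that did. A further filter kept the 13308 genes above the 40th percentile of mean level for testing, and 8 of the 10 passed it. Slc1a4 and Slc7a11 did not.

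Expression was measured on 8 Affymetrix arrays of mouse CD4+ T cells of the C57BL/6 strain, 4 of Irak1-/- and 4 of wt cells. IRAK1 is a kinase that relays signals from IL-1 family and Toll-like receptors. Equal numbers of CD4+CD62L+ cells of the 2 genotypes, Irak1-/- with CD45.2 and wt with CD45.1, were cotransferred by injection to Rag1-/- mice. These mice lack mature T and B cells of their own and develop colitis after such a transfer. Both CD3+CD4+ populations were recovered from mesenteric lymph nodes by sorting on day 14, with a stated purity above 99.5%, and cells of 2 recipients were pooled per experiment, so each of 4 replicate experiments gave a pair of arrays from the same recipients. The part of Irak1 that was deleted, and the age and sex of the mice, are not given in the labels. Genotype and CD45 allele went together in every pair, so the effect of one cannot be told apart from that of the other.

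Naive T cells take up few amino acids. After antigen stimulation they raise the surface level of transporters for leucine, glutamine, arginine and cystine, which feed protein synthesis, glutaminolysis, polyamine synthesis and glutathione, and leucine entry also keeps the growth kinase mTORC1 active. Several of these transporters work in pairs: the glycoprotein CD98 heavy chain, product of Slc3a2, carries light chains of the SLC7 family to the membrane. The transcription factors MYC and ATF4 are known inducers of many of these genes.

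Values are log2 levels, the median of an array lay between 4.25 and 4.31, and the number of arrays limits the precision. A level can be set against another only for the same probe set, since probe sets differ in how they bind. The Irak1-/- array of replicate 3 stood apart, correlating with the others at 0.950 to 0.957, while the other 7 correlated among themselves at 0.969 to 0.981. Irak1 itself read 6.84 ± 0.167 (SD, n = 4) on Irak1-/- and 6.77 ± 0.332 on wt arrays, so its probe set does not check the genotype. T cell markers were at like levels on both genotypes, with array means over 8 tested genes of 10.17 to 10.23 on Irak1-/- arrays 1, 2 and 4 and 10.15 to 10.22 on wt arrays, and the lowest of all on the Irak1-/- array of replicate 3. Myeloid markers were higher on Irak1-/- arrays: their means over 15 tested genes ran from 5.59 to 6.31 on Irak1-/- arrays and from 4.55 to 4.88 on wt arrays. The level filter took the mean over all 8 arrays, so some markers passed it only through their Irak1-/- levels, which can widen that gap. Clec4a3, for example, averaged 4.80 on Irak1-/- and 3.03 on wt arrays. Without the filter the median log2 difference, Irak1-/- minus wt, was 0.81 over all 18 markers, against 1.02 over the 15. All 15 differences were above 0, but they were uneven, from 0.05 for Itgam to 4.16 for Lyz2. Cd68 had 0.16 and Adgre1 0.27. Cd14, Ms4a7 and Csf3r of the same list of 18 lay under the level filter. Means of 6 tested B cell markers were 4.23 to 4.37 on Irak1-/- and 4.17 to 4.38 on wt arrays, and means of 9 epithelial and stromal markers were 4.47 to 4.76 on Irak1-/- and 4.64 to 4.74 on wt arrays. The 9 tested NK and CD8 T cell markers averaged 5.76 to 6.04 on Irak1-/- arrays and 6.15 to 6.27 on wt arrays. The 8 tested dendritic cell markers averaged 5.51 to 5.82 on Irak1-/- arrays and 5.20 to 5.37 on wt arrays. The dendritic cell list was split, with 5 differences above and 3 below 0 and a median of 0.06. H2-Ab1 (1.77) and H2-Aa (1.74) were the highest, and Itgax (-0.59) was the lowest.

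None of the 8 tested transporter genes differed between Irak1-/- and wt cells in the limma fit with the pairs as a block. Their log2 differences, always Irak1-/- minus wt, ran from -0.18 for Slc38a2 to 0.30 for Slc43a1, with 4 above and 4 below 0. Adjusted p values, by the Benjamini-Hochberg method over all 13308 genes, lay between 0.806 and 0.995, and 0 of the 8 reached an unadjusted p under 0.05. Over all tested genes 0.0751% were called at an adjusted p under 0.05 and 6.7% had an unadjusted p under 0.05. The median difference was 0.00015 for the 8 genes and -0.03 for all tested genes. No transporter gene moved the same way in all 4 pairs, as 14.2% of all genes did, and none had levels that did not overlap between genotypes, as 3.04% of all genes had. In bulk RNA a lower share of cells of a type and less RNA per cell cannot be told apart.

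**Figure D1:**
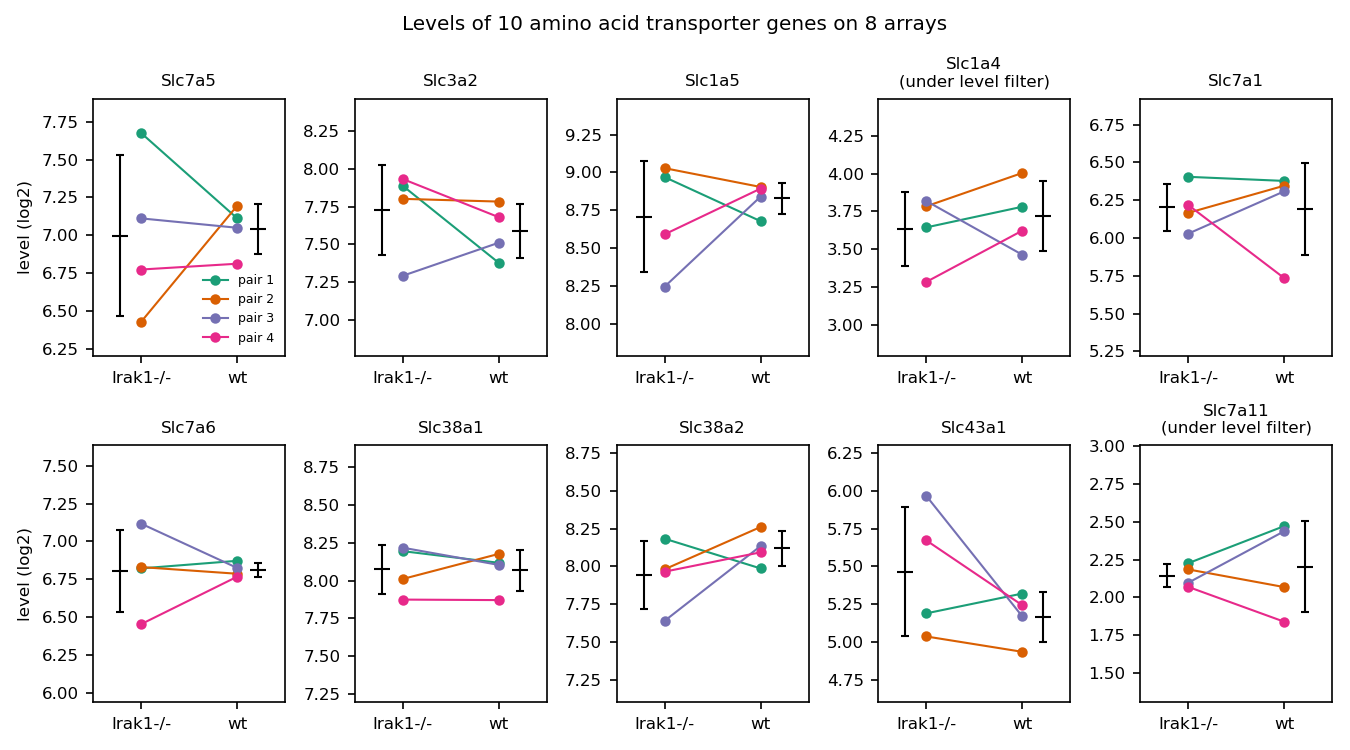
Levels (log2, y axis) of the 10 transporter genes on the 8 arrays, Irak1-/- left and wt right, with a line for each pair from the same recipients and, beside the points, the mean ± SD of each genotype (n = 4). Each panel spans the same number of log2 units, and in every panel the Irak1-/- and wt points overlap.

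The intervals of the fit give a range for the difference of each gene. They are not the size that a call needed, since calls used p values adjusted over all tested genes. The widest was that of Slc7a5, with a 95% confidence interval from -0.48 to 0.39 on the log2 scale, and the narrowest that of Slc38a1, from -0.24 to 0.25. On the linear scale the 8 intervals, each for 1 gene and not adjusted for their number, reached no further up than 1.57-fold higher, for Slc43a1, and no further down than 1.39-fold lower, for Slc7a5, Slc1a5 and Slc38a2. These bounds do not show that the genotypes were alike within them.

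Slc3a2 encodes the CD98 heavy chain, the partner that light chains such as the product of Slc7a5 need to reach the cell surface. Its probe set, 17362453 on chromosome 19, read 7.89, 7.80, 7.29 and 7.93 on the Irak1-/- arrays of replicates 1 to 4, against 7.38, 7.78, 7.51 and 7.68 on the wt arrays. The lowest and the highest of the 8 levels were both on Irak1-/- arrays, those of replicates 3 and 4. The fitted difference was 0.14 (SE 0.137, adjusted p = 0.921), with pair differences of 0.51, 0.02, -0.22 and 0.25. Without pair 3, whose Irak1-/- array stood apart, it was 0.26, and without pair 1 it was 0.02.

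Slc7a5 encodes LAT1, the light chain that brings in leucine and other large neutral amino acids and joins the CD98 heavy chain. Its probe set, 17513641 on chromosome 8, read 7.68, 6.43, 7.11 and 6.77 on the Irak1-/- arrays of replicates 1 to 4, against 7.11, 7.19, 7.05 and 6.81 on the wt arrays. Both ends of its range were again Irak1-/- arrays, replicate 1 at the top and replicate 2 at the bottom, 1.25 apart, while the 4 wt arrays lay within that span. The fitted difference was -0.04 (SE 0.191, adjusted p = 0.981), from pair differences of 0.56, -0.77, 0.06 and -0.04 that pointed both ways. Single pairs decided its sign: it was 0.20 without pair 2 and -0.25 without pair 1.

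Slc3a2 and Slc7a5 did not follow each other over the 8 arrays, with a Pearson's correlation of -0.08. In pair 1 both were higher in Irak1-/- cells, by 0.51 for Slc3a2 and 0.56 for Slc7a5. In pair 2 the difference was -0.77 for Slc7a5 and 0.02 for Slc3a2. The Irak1-/- array of replicate 4 held the highest Slc3a2 level of all arrays and the second lowest Slc7a5 level.

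Slc7a6 encodes y+LAT2, a light chain that exchanges arginine and other cationic amino acids for neutral ones. Its probe set, 17505069 on chromosome 8, read 6.82, 6.83, 7.12 and 6.45 on the Irak1-/- arrays of replicates 1 to 4, against 6.87, 6.79, 6.82 and 6.77 on the wt arrays. The wt arrays were close together, with an SD of 0.0464, and the Irak1-/- arrays of replicates 3 and 4 lay above and below all of them. The fitted difference was -0.0068 (SE 0.126, adjusted p = 0.995), and quantile normalization of the arrays turned it to 0.0069.

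Slc7a11 encodes xCT, the light chain that takes up cystine in exchange for glutamate. Its probe set, 17405082 on chromosome 3, read 2.23, 2.19, 2.10 and 2.07 on the Irak1-/- arrays of replicates 1 to 4, against 2.47, 2.07, 2.44 and 1.84 on the wt arrays. All 8 levels lay well under the array medians, at the 6.56th percentile of mean level over genes, and the second probe set of the gene, 17397421, averaged 1.82 ± 0.104 on Irak1-/- and 1.79 ± 0.0692 on wt arrays. No background measure comes with the values, so whether such levels are signal cannot be said, and the gene was not tested with the level filter in place.

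Slc7a1 encodes CAT1, the carrier of arginine and lysine, and needs no heavy chain. Its probe set, 17455401 on chromosome 5, read 6.40, 6.17, 6.03 and 6.22 on the Irak1-/- arrays of replicates 1 to 4, against 6.38, 6.35, 6.31 and 5.74 on the wt arrays. The wt array of replicate 4 was below all the others, and the remaining 7 lay between 6.03 and 6.40. The fitted difference was 0.01 (SE 0.142, adjusted p = 0.993), and without pair 4 it was -0.14.

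Slc1a5 encodes ASCT2, a sodium-dependent exchanger of glutamine and small neutral amino acids. Its probe set, 17474143 on chromosome 7, read 8.97, 9.03, 8.24 and 8.59 on the Irak1-/- arrays of replicates 1 to 4, against 8.68, 8.90, 8.84 and 8.89 on the wt arrays. The Irak1-/- arrays of replicates 1 and 2 were the 2 highest of all and those of replicates 3 and 4 the 2 lowest, with the wt arrays in between. The fitted difference was -0.12 (SE 0.156, adjusted p = 0.945), and it was 0.04 without pair 3 and -0.26 without pair 1. A second probe set, 17486956, had 8.23, 8.60, 7.68 and 8.05 on Irak1-/- arrays against 8.07, 8.60, 8.31 and 8.58 on wt arrays. It gave -0.25 (SE 0.161, adjusted p = 0.923 when every probe set was tested), with the Irak1-/- arrays of replicates 3 and 4 again the lowest.

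Slc1a4, the relative of Slc1a5 that encodes ASCT1 and carries alanine, serine, cysteine and threonine, had low levels. Its probe set, 17260869 on chromosome 11, read 3.64, 3.78, 3.82 and 3.28 on the Irak1-/- arrays of replicates 1 to 4, against 3.78, 4.00, 3.46 and 3.62 on the wt arrays. Every level was under the median of its array, and the mean was at the 34.8th percentile over genes, so Slc1a4 was not tested with the level filter in place. Without that filter its difference was -0.09 (adjusted p = 0.977) and that of Slc7a11 was -0.06 (adjusted p = 0.982), over 22180 genes.

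Slc38a1 and Slc38a2 encode SNAT1 and SNAT2, which couple the uptake of glutamine, alanine and other small neutral amino acids to sodium, and both lie on chromosome 15. The probe set of Slc38a1, 17320907, read 8.19, 8.01, 8.22 and 7.87 on the Irak1-/- arrays of replicates 1 to 4, against 8.12, 8.18, 8.10 and 7.87 on the wt arrays. It was the steadiest of the 8 tested genes between genotypes, with pair differences between -0.17 and 0.11 and a fitted difference of 0.0071 (SE 0.108, adjusted p = 0.994). Median centring of the arrays turned that to -0.0017. Within replicate 4 both genotypes gave the lowest levels of Slc38a1, 7.87 each.

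Slc38a2 is the member of that pair whose gene is known to be induced when amino acids run short. Its probe set, 17320928, read 8.18, 7.98, 7.64 and 7.97 on the Irak1-/- arrays of replicates 1 to 4, against 7.99, 8.26, 8.13 and 8.09 on the wt arrays. The 3 lowest levels were on Irak1-/- arrays, and the Irak1-/- array of replicate 1 was the second highest. The fitted difference, -0.18 (SE 0.133, adjusted p = 0.893), was the lowest of the 8, with pair differences of 0.20, -0.28, -0.49 and -0.13, and it was -0.07 without pair 3 and -0.30 without pair 1 (unadjusted p = 0.0589).

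Slc43a1 encodes LAT3, a facilitative carrier of branched-chain amino acids and phenylalanine that works without a heavy chain. Its probe set, 17372621 on chromosome 2, read 5.19, 5.04, 5.97 and 5.67 on the Irak1-/- arrays of replicates 1 to 4, against 5.32, 4.94, 5.17 and 5.24 on the wt arrays. The Irak1-/- arrays of replicates 3 and 4 were above every other array, and those of replicates 1 and 2 lay among the wt arrays. Its fitted difference was the highest of the 8 at 0.30 (SE 0.156, 95% confidence interval -0.06 to 0.65, unadjusted p = 0.0891, adjusted p = 0.806). Pair differences were -0.13, 0.10, 0.80 and 0.43, and the difference was 0.13 without pair 3 and 0.44 without pair 1.

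**Figure D2:**
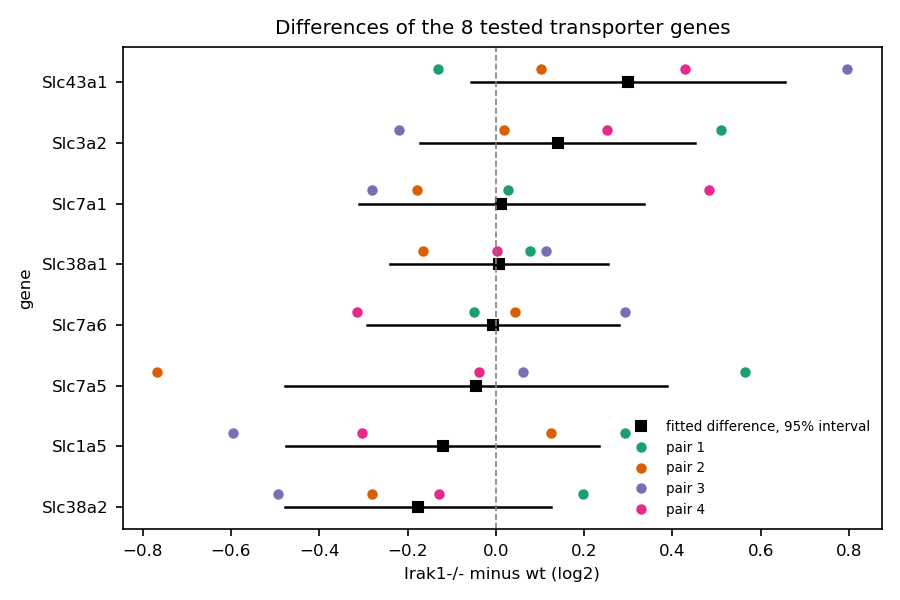
Irak1-/- minus wt difference (log2, x axis) of the 8 tested transporter genes (y axis), with the fitted difference and its 95% confidence interval as a square and bar and the 4 pair differences as coloured points. Every interval crosses 0, from Slc38a2 at -0.18 to Slc43a1 at 0.30, and for every gene the pairs fall on both sides of 0.

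The direction of the difference changed from pair to pair. In pair 1, 6 of the 8 genes were higher in Irak1-/- cells, with a median difference of 0.14, against -0.0037 for all tested genes. In pairs 2, 3 and 4, 4 genes were higher and 4 lower each, with medians of -0.07, -0.08 and -0.02, beside -0.04, -0.06 and 0.0021 for all tested genes. The gene at the top changed from pair to pair: Slc7a5 in pair 1, Slc1a5 in pair 2, Slc43a1 in pair 3 and Slc7a1 in pair 4. Means of the myeloid markers in the same pairs, again Irak1-/- minus wt, were 0.71, 1.10, 1.51 and 1.46. With the myeloid mean as a covariate the 8 differences ran from -0.91 for Slc43a1 (SE 0.439, adjusted p = 0.970) to 1.09 for Slc1a5 (SE 0.437, adjusted p = 0.970), and none was called. Standard errors of the 8 genes were 0.428 to 0.760 in that fit, against 0.108 to 0.191 without the covariate. The myeloid mean was higher on every Irak1-/- array than on every wt array, so that fit can hardly tell it apart from genotype.

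Levels of most of these genes were more spread on Irak1-/- arrays than on wt arrays. The SD over 4 arrays was larger in Irak1-/- for 7 of the 8 tested transporter genes, all but Slc7a1, with a median SD of 0.284 in Irak1-/- and 0.150 in wt. Over all tested genes 59.0% had the larger SD in Irak1-/-, with medians of 0.191 in Irak1-/- and 0.166 in wt. When the replicate 3 array of Irak1-/- was left out, its SD had a median of 0.188 over the 8 genes and 0.149 over all tested genes, and the SD was larger in Irak1-/- for 6 of the 8 and for 43.9% of all genes. These shares are a description without a test. The Irak1-/- array of replicate 1 had 7 of the 8 genes above their own mean over the 8 arrays, by a median of 0.18, against 0.03 for all tested genes on that array.

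Over the 8 arrays the genes whose pattern was most like that of Slc7a5 were Map3k2, Tfrc, Mybl1, Nr2c1 and Fam20b. Likeness was Pearson's correlation of log2 levels, and as these are the highest of 13308 genes the values are a description only. They were 0.937 for Map3k2, a kinase of the MAP kinase cascade, 0.928 for Tfrc, the transferrin receptor that brings iron into dividing cells, and 0.927 for Mybl1, a MYB family transcription factor. Nr2c1, an orphan nuclear receptor, had 0.913 and Fam20b, a kinase of proteoglycan synthesis, 0.910. The Irak1-/- arrays of replicates 1 and 2 lay farthest from the median of Slc7a5. Without both, the values were 0.895 for Map3k2, 0.798 for Tfrc, 0.882 for Mybl1, 0.976 for Nr2c1 and 0.607 for Fam20b. Tfrc read 7.41, 6.54, 6.83 and 6.65 on the Irak1-/- arrays of replicates 1 to 4, against 6.86, 6.96, 6.66 and 6.72 on the wt arrays, with its top and its bottom on the same 2 arrays as Slc7a5. Among the other 7 tested transporter genes Slc38a1 was most like Slc7a5, with 0.691, or 0.963 without those 2 arrays, and Slc3a2 least, with -0.08, or -0.55 without them.

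**Figure D3:**
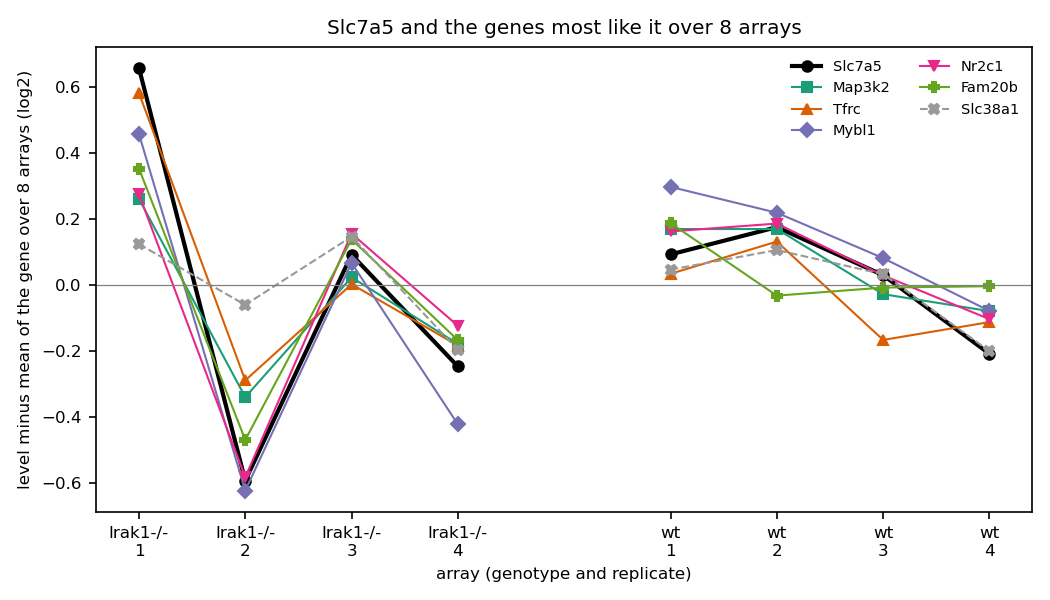
Level minus the mean of the gene over 8 arrays (log2, y axis) for Slc7a5, the 5 genes with the highest correlation to it and Slc38a1, on the 4 Irak1-/- arrays (left) and the 4 wt arrays (right); lines only join the points of a gene. Slc7a5 and the 5 genes share a top on the Irak1-/- array of replicate 1 and a bottom on that of replicate 2.

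Promoter sequences are shown for the 3 genes in which the letters of an amino acid response core or an E-box were found. They come from RefSeq, build GRCm38.p6, which gave windows of 250 bases before to 50 after the start for 7 of the 10 genes. No window was at hand for Slc7a5, Slc1a5 and Slc38a1, so these were not searched. The motifs searched on both strands were TGATGNAA, a core that ATF4 dimers bind, CACGTG, the E-box bound by MYC, and TGACNNNGC, the antioxidant response core bound by NRF2. Each sequence is printed 5′ to 3′ on the strand of the gene, with matches in capitals.
Slc7a11: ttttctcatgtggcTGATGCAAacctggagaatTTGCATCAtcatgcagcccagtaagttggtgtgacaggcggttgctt
Slc1a4: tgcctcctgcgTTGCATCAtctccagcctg
Slc43a1: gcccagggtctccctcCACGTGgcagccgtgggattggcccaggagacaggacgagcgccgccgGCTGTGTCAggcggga

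The Slc7a11 stretch lies at chr3:50443614-50443693 on the minus strand and ends at the last base before the start. It holds TGATGNAA once on each strand, 2 matches that do not overlap. The Slc1a4 stretch lies at chr11:20332699-20332728, minus strand, and its single match spans the start, from base -4 to base 4. Both genes with this core were those under the level filter, and the level of neither separated the genotypes. The Slc43a1 stretch lies at chr2:84840243-84840322, plus strand, and holds an E-box at -64 to -59 and an antioxidant response core on the opposite strand at -16 to -8. In windows of 300 bases TGATGNAA was found in 3.97% of 32851 promoters and in 2 of the 7 genes, CACGTG in 7.15% and in 1 of the 7, and TGACNNNGC in 12.4% and in 4 of the 7, namely Slc43a1, Slc7a1, Slc7a6 and Slc38a2. The percentages count promoter windows, while the 7 genes had 9 windows and each gene was counted once, so the 2 kinds of share are not alike. A match is a string of letters and does not show that a factor binds there.

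Further carriers of amino acids were read next to these. Among 36 other amino acid transporters and exporters 35 had a probe set and 19 were tested. Of these 0 were called, 1 had an unadjusted p under 0.05, beside 6.7% of all tested genes, and the median difference was -0.0033. Slc15a4, a histidine and peptide carrier of lysosomes, had 0.26 (SE 0.112, adjusted p = 0.739), and all 4 pairs were higher. Slc15a3, its relative, had 0.28, Slc6a6, the taurine carrier, -0.23, and Slc36a4, a proton-coupled amino acid carrier, 0.19. Slc7a7 and Slc7a10, further light chains, had -0.0033 and -0.03, and Slc7a8 and Slc7a9 were under the level filter. These 4 light chains were named after their values were seen.

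Carriers of other nutrients were tested as well. Of 14 tested, among them the glucose carriers Slc2a1 and Slc2a3, 0 were called and 0 had an unadjusted p under 0.05. Over all tested genes these shares were 0.0751% and 6.7%. There were 5 differences above and 9 below 0, where 58.1% of all tested genes were below 0, and the median was -0.05. Slc29a2, a nucleoside carrier, had -0.27 (SE 0.134, adjusted p = 0.792). Slc5a6, which carries biotin and pantothenate, had 0.14, Slc2a3 0.13 and Slc20a1, a phosphate carrier, -0.13.

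Amino acid response genes, which cells raise through ATF4 when amino acids are short, had 14 differences above and 14 below 0 over 28 tested genes, and a median of 0.0032. None was called, and 1 had an unadjusted p under 0.05, beside 6.7% of all tested genes. That gene was Ppp1r15a, a phosphatase subunit that restores translation, with -0.27 (SE 0.118, adjusted p = 0.746) and a lower level in 4 of 4 pairs. The stress factor Atf3 had 0.38, the tRNA exporter Xpot 0.22 and the transcription factor Cebpb 0.32, with adjusted p between 0.812 and 0.862. The 22 tested enzymes of amino acid and polyamine metabolism had a median of -0.03, and 0 were called, beside 0.0751% of all tested genes. Their smallest p values were those of Mtr, methionine synthase (0.19), Gclc, the first enzyme of glutathione synthesis (-0.16), Glul, glutamine synthetase (0.13), and Srm, spermidine synthase (0.13).

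The list of amino acid sensing by mTORC1 held sensors, regulators and parts of the kinase complex itself. It had no call among 33 tested genes, beside 0.0751% of all tested genes, and a median of -0.02. Sesn1, a leucine sensor of the sestrin family, had the smallest p, with 0.38 (SE 0.133, unadjusted p = 0.0184, adjusted p = 0.607). Castor1, the arginine sensor, read 5.86, 5.81, 5.86 and 5.49 on the Irak1-/- arrays of replicates 1 to 4, against 5.97, 5.98, 6.20 and 5.99 on the wt arrays. Its levels did not overlap between genotypes, as in 3.04% of all genes, and its difference was -0.28 (SE 0.115, adjusted p = 0.717). Rragc, a Rag GTPase, had 0.29 and Sesn3, another sestrin, 0.19.

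Receptors and factors of T cell activation that are known to govern nutrient uptake had 14 of 17 tested differences below 0, with a median of -0.11, where 58.1% of all tested genes were below 0. That median was -0.040 without pair 3, -0.038 in the unpaired fit that drops the Irak1-/- array of replicate 3, -0.18 without pair 1 and 0.18 with the myeloid covariate. The covariate separated the genotypes on all arrays, so the value with it cannot be read apart from genotype. None was called, and 3 had an unadjusted p under 0.05, each lower, where 6.7% of all tested genes had such a p in either direction. Cd69, an early activation marker, read 8.91, 8.99, 8.81 and 9.08 on the Irak1-/- arrays of replicates 1 to 4, against 9.60, 9.34, 9.44 and 9.41 on the wt arrays. All 4 of its Irak1-/- levels were under all 4 wt levels, with a difference of -0.51 (SE 0.116, adjusted p = 0.336). Bhlhe40, a transcription factor of effector cells, had -0.35 (adjusted p = 0.655) and Mxd1, an antagonist of MYC, -0.24 (adjusted p = 0.741), both without overlap between genotypes. Levels without overlap, in either direction, were seen in 3.04% of all tested genes and in 3 of the 17 here, a count that was not tested. Il2ra, the IL-2 receptor alpha chain, had -0.25 and Myc itself, named after its value was seen, 0.0058 (adjusted p = 0.995). Within the pairs the medians of this list were 0.0097, -0.13, -0.29 and -0.10, beside myeloid means of 0.71, 1.10, 1.51 and 1.46.

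**Figure D4:**
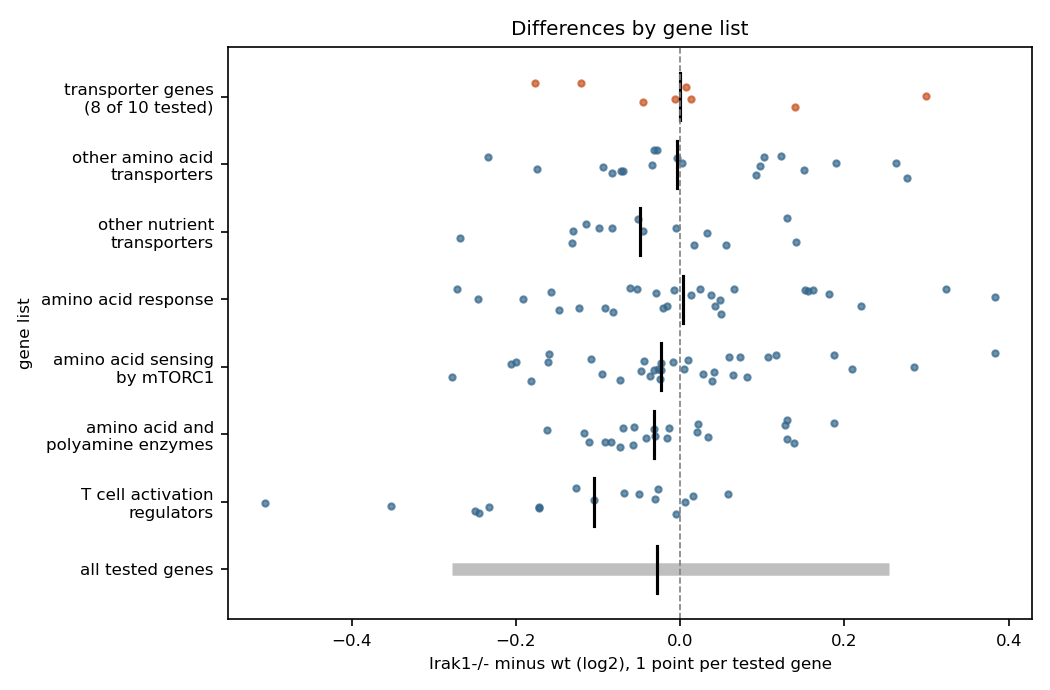
Irak1-/- minus wt difference (log2, x axis) of each tested gene, as a point, in 7 gene lists (y axis), with a black bar at the median of the list. The grey band of all tested genes runs from the 5th to the 95th percentile, -0.28 to 0.25, and shows the spread of single genes. The median of the 8 tested transporter genes is 0.00015, and that of the T cell activation list, -0.11, is the lowest of the 7.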

How the data were processed

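The deposited values are log2 levels, 41345 probe sets on each of 8 arrays. Per the labels, biotin-labelled total RNA was hybridized by the standard Affymetrix protocol; how background was corrected and how probes were summarized and normalized is not stated there. A single gene symbol was annotated for 23521 probe sets, several for 1814, and 16010 had none in the table used. The brightest single-symbol probe set on average stood for each of 22180 genes, and genes under the 40th percentile of mean level (3.90) were left out, leaving 13308.

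Genotypes were compared with limma 3.58.1 (R 4.3.3; lmFit, eBayes, two-sided), with batch as a block and Benjamini-Hochberg adjustment over all tested genes; an adjusted p under 0.05 was called. Batch labels pair the arrays, whose cells came from shared recipients; deviations from the genotype means correlated within pairs at 0.0799 to 0.200. The transporters and lists were chosen with earlier results of these data known, so lists are described by counts and medians with no test. Named genes are the 10 transporters, up to 4 with the smallest p in each other list, and the 5 most like Slc7a5. On simulated data with 13308 genes, 200 of them changed, the fit recovered 81.0% of genes changed by 1 and 99.0% of those changed by 2 on the log2 scale. The simulated noise had the same SD in both genotypes and no array that stood apart. Changes as small as the fitted differences of the transporters were not tried, so these shares do not apply to them. Gene positions come from GRCm38.p6. Alternatives covered the pairing, normalization, level filter, probe sets, variance model, each pair, the array that stood apart and a myeloid covariate.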

Additional observations from a re-analysis of the deposited data

Results flagged for a closer look

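Among 39 named genes, 78 groups of 4 arrays were checked for an array far from the other 3, by Dixon's test at the 95% level, and 6 were found, where chance gives about 1 in 20. Of the transporters only Slc7a1 was among them: its wt array of replicate 4 read 5.74, while the other 3 wt arrays read 6.31 to 6.38. The pair difference of that replicate, 0.48, was the highest of Slc7a1, and without pair 4 the fitted difference of Slc7a1 was -0.14. The other 5 were Slc6a6, with 7.38 on the wt array of replicate 2 against 7.59 to 7.64; Castor1, with 5.49 on the Irak1-/- array of replicate 4 against 5.81 to 5.86, and with 6.20 on the wt array of replicate 3 against 5.97 to 5.99; Mxd1, with 7.56 on the Irak1-/- array of replicate 1 against 7.49 to 7.50; and Fam20b, with 6.45 on the wt array of replicate 1 against 6.23 to 6.26.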

How the results depend on the processing

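Under 15 alternatives no transporter gene was called in any, and the lowest adjusted p was 0.686, for Slc43a1 without pair 1. Of 120 single values 3 had an unadjusted p under 0.05 and 17 changed sign. The 3 were Slc43a1 without pair 1 (0.0280), Slc3a2 in the unpaired fit on 7 arrays (0.0391) and Slc1a5 with the myeloid covariate (0.0398). Without the replicate block the counts over all genes were 10 higher and 1 lower, and that fit changed no call of a transporter. Leaving out a pair gave -0.25 to 0.20 for Slc7a5, -0.26 to 0.038 for Slc1a5, -0.14 to 0.11 for Slc7a1, -0.11 to 0.10 for Slc7a6, -0.30 to -0.07 for Slc38a2, 0.13 to 0.44 for Slc43a1, 0.02 to 0.26 for Slc3a2 and -0.028 to 0.065 for Slc38a1. The unpaired fit on 7 arrays that drops the Irak1-/- array of replicate 3 gave 0.29 for Slc3a2, 0.034 for Slc1a5 and -0.041 for Slc38a1. Quantile normalization gave 0.0069 for Slc7a6, and median centring -0.0017 for Slc38a1. With the myeloid covariate the values were 0.51 for Slc7a5, 0.87 for Slc3a2, 1.09 for Slc1a5 and -0.11 for Slc7a1. They were -0.09 for Slc7a6, -0.036 for Slc38a1, 0.57 for Slc38a2 and -0.91 for Slc43a1. The median over the 8 genes was 0.24, and over all tested genes 0 were called higher. All Irak1-/- values of that covariate lay above all wt values, so the fit can hardly tell it apart from genotype. It also averages 4 of the 9 genes called higher without it, so the loss of those 4 calls was largely built in. The counts over all genes, 9 higher and 1 lower in the fit as reported, were 14 and 2 with a random block, 14 and 2 with median centring, 12 and 2 with the 60th percentile filter, 13 and 3 with trend and robust variances, and 6 to 16 higher with a pair left out. The cause of these shifts was not tested. The levels of Slc1a4 and Slc7a11, both under the filter, cannot be read against a background here.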
